A study of Homo sapiens with 402 samples.

Results

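The 40 genes described here encode the helpers of the heat shock protein 70 and 90 machinery together with small heat shock proteins, chaperonins and the heat shock factors. They were taken by name from a fixed list: 9 J-domain co-chaperones (DNAJA1, DNAJA2, DNAJA4, DNAJB1, DNAJB2, DNAJB4, DNAJB5, DNAJB6 and DNAJC7), 4 BAG family members (BAG1, BAG2, BAG3 and BAG5), 3 small heat shock proteins (HSPB1, HSPB8 and CRYAB), the cytosolic HSP90 pair (HSP90AA1 and HSP90AB1), the mitochondrial chaperonin pair (HSPD1 and HSPE1), the 8 subunits of the TRiC chaperonin (TCP1, CCT2, CCT3, CCT4, CCT5, CCT6A, CCT7 and CCT8), 8 HSP90 and HSP70 partners (STIP1, AHSA1, FKBP4, CHORDC1, CACYBP, PTGES3, ST13 and UNC45A), STUB1 and HSPBP1, and the transcription factors HSF1 and HSF2. All 40 were listed among the 34718 gene symbols of 4 of the 5 plates, and 39 of them among the 15081 symbols of the plate that held DDE, where DNAJA4 was not listed.

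The cells were MCF10A, a non-tumorigenic human breast epithelial line, wild type by label and at passage 105 in every library, so that dosed and control wells shared 1 line and 1 passage. They were dosed for 48 h with 1 of 21 chemicals at 0.025, 0.25, 2.5 or 25 µM and read by plate-based RNA sequencing as 333 dosed and 69 control libraries. Mercury, lead, copper, cadmium and arsenic shared plate 3153 and its 15 water controls, and PPB, MPB, BPS, BPF and BPA shared plate 3206 and its 15 DMSO controls. On plate 3240 phenanthrene, PFOS, PFNA and PFDA were set against 12 DMSO controls and PFOA against 4 water controls. On plate 3284 thiram, PCB187, PCB153, DCP_25 and DCB_14 were set against 15 DMSO controls, and DDE, labelled as dissolved in DMSO, was sequenced with 8 controls labelled water; the plate label of the DDE libraries is 2250-AT and that of these controls 3153-AT, so label and treatment cannot be told apart. Each group had 4 libraries that the labels call biological replicates, except MPB and PPB at 0.025 µM with 3 and cadmium at 25 µM with 2. The cadmium library numbered 4 carried the barcode of plate 3284 and was set aside, and none numbered 3 is in the series. Nothing in the labels ties a replicate to a separately thawed culture, so the p-values measure the spread between these wells.

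A J-domain protein hands an unfolded client to HSP70 and starts its ATP cycle, and BAG proteins then make HSP70 release nucleotide and client. STIP1 passes clients from HSP70 to HSP90, where AHSA1, PTGES3, FKBP4 and other partners set the pace and the choice of client, while STUB1 marks clients that stay bound for degradation. Small heat shock proteins hold unfolding proteins without ATP, TRiC folds actin and tubulin in the cytosol, and HSPD1 with its lid HSPE1 folds proteins in the mitochondrial matrix. Under protein-damaging stress HSF1 is released from chaperones, forms trimers and binds heat shock elements, which are inverted repeats of a 3-base unit upstream of many of these genes.

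Sequences around the starts of RefSeq entries show which members carry that repeat close to such a start. RefSeq entries (GRCh38.p14) covering 250 bases before to 50 bases after a gene's start were found for 34 of the 40 members, and CCT6A, CRYAB, FKBP4, HSF1, ST13 and STUB1 had no entry. A run of 3 adjoining units, searched as GAANNTTCNNGAA and TTCNNGAANNTTC so that both strands are covered, were found in 6 of the 34 (17.6%), against 166 of 27305 symbols overall (0.608%). Counted per entry, 6 of 54 member entries held the match (11.1%), against 172 of all 35116 (0.490%). In HSP90AA1, HSP90AB1 and HSPD1 not every entry held it, and the match lies downstream of the start of the entries without it. The match of DNAJA1 begins at offset 3 from the first base, after the start. The 6 windows are shown because these members hold the full repeat; capitals mark the repeat units, each sequence reads 5′ to 3′ on the gene's strand, and none says that a factor was bound.
CHORDC1, chr11:90223083-90223112, minus strand: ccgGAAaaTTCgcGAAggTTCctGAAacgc
DNAJA1, chr9:33025268-33025297, plus strand: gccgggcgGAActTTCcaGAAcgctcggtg
DNAJB6, chr7:157336865-157336894, plus strand: agagccgaGAAccTTCgcGAAggtggggcg
HSP90AA1, chr14:102087111-102087140, minus strand: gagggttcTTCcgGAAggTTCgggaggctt
HSP90AB1, chr6:44247770-44247799, plus strand: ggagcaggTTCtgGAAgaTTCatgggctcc
HSPD1, chr2:197500061-197500090, minus strand: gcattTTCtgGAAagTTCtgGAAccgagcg

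The shorter pair of units (GAANNTTC or TTCNNGAA, which the longer match contains) occurred in 16 of the 34 members (47.1%) and in 4417 of the 27305 symbols (16.2%). Windows of DNAJB1, HSPB1 and HSPB8 are given as examples of members that hold only the pair. Others with only the pair, DNAJB4 and STIP1 among them, are also described by library below and are not shown.
DNAJB1, chr19:14518456-14518485, minus strand: cgggcggggcgGAAggTTCtggagggggct
HSPB1, chr7:76302480-76302509, plus strand: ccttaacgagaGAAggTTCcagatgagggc
HSPB8, chr12:119178832-119178861, plus strand: tcatcacctccGAAtaTTCctgtgacagga
The pair was found in 3 of 7 TRiC subunits with an entry. BAG3 held no match in its window.

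Libraries held 1.43 to 25.8 M counts (median 12.6 M). The 25 µM libraries of arsenic held 7.27 to 11.98 M, those of thiram 2.46 to 6.29 M and those of cadmium only 1.43 to 1.45 M. The first 8 controls of plate 3153 were sequenced to a median of 20.9 M, against 3.17 M for the last 7, and on plate 3284 these medians were 17.9 and 3.18 M. Replicates 1 and 2 of a dose with the first 8 controls are called the first numbering set here, and replicates 3 and 4 with the last controls the second. The sets also stood apart in the members: 18 of 38 tested on plate 3153 differed between first and last controls (3 higher and 15 lower in the first; 20.3% of all genes), 11 on plate 3284 (6.38%), 9 on plate 3206 (6.07%) and 0 on plate 3240 (0.546% of genes). Depth and numbering set cannot be told apart, and results that rest on 1 set are given as such. Of the epithelial markers, KRT5 (median 1247 CPM, counts per M counts of the scaled library), KRT17, KRT8 and KRT18 were abundant in all 69 controls, KRT14 (24.1 CPM), CDH1 (13.9 CPM), EPCAM (22.2 CPM) and GATA3 (23.6 CPM) had lower medians, TP63 had a median of 4.24 CPM and ESR1 was at 0 in 39. Of the immune markers CD3E was at 0 in all 61 controls of the plates that list it, PTPRC in 60, LYZ in 58 and CD68 in 53. Of the fibroblast markers DCN was present in every control (median 41.9 CPM) and COL1A1 in all but 3, while COL1A2 was at 0 in 60 of 61, LUM in 43 and PDGFRB in 34. The endothelial markers VWF and CDH5 were at 0 in 60 and 59 of 61, and PECAM1 and KDR had medians of 1.5 and 1.22 CPM. Levels are CPM within a plate, and in bulk wells fewer cells and less RNA per cell cannot be told apart.

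Of the 838 tests of a member at 25 µM, 101 passed the threshold of an adjusted p under 0.05 in edgeR's quasi-likelihood test (74 higher and 27 lower than the plate's controls). They fell in 6 chemicals: arsenic with 30 of 40 members, thiram with 27, cadmium with 25, DDE with 11 of 38, lead with 5 and copper with 3. In arsenic 18 members were higher and 12 lower, against 23.2% and 18.2% of the 24295 genes tested (41.4% in both directions). In cadmium 23 were higher and 2 lower, against 5.67% and 5.38% of genes (11% together), and in thiram 22 were higher and 5 lower, against 13.7% and 12.2% (25.9% together). The median log2 fold change of the members was 0.26 in arsenic, 0.57 in cadmium and 0.49 in thiram, where the median of all genes tested was 0.00, -1.42 and -0.11. Restricted to abundant genes (mean log2 CPM 4 or more) it was -0.21, -0.38 and -0.13. With DESeq2 the median of all genes in cadmium was 0.07, so that baseline depended on the method. For the other 15 chemicals no member was called in 600 tests by edgeR, against 0.114% of genes. Their members with an unadjusted p under 0.05 numbered between 0 (PFOS and PCB187) and 16 (PFNA), and DESeq2 called 2. DNAJB1 ranged over these 15 from -0.04 ± 0.10 (PPB) to 0.19 ± 0.09 (PFDA), BAG3 from -0.19 ± 0.10 (PCB153) to 0.21 ± 0.08 (MPB) and HSPB1 from -0.17 ± 0.08 (DCB_14) to 0.18 ± 0.12 (mercury). HSP90AB1 ranged from -0.14 ± 0.06 (PFOA) to 0.08 ± 0.05 (PFOS). CRYAB was too sparse to bound there, with standard errors of 0.85 to 3.58. The smallest adjusted p of any member in them was that of DNAJA1 in PFDA (0.22 ± 0.06, p = 0.125).

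**Figure D1:**
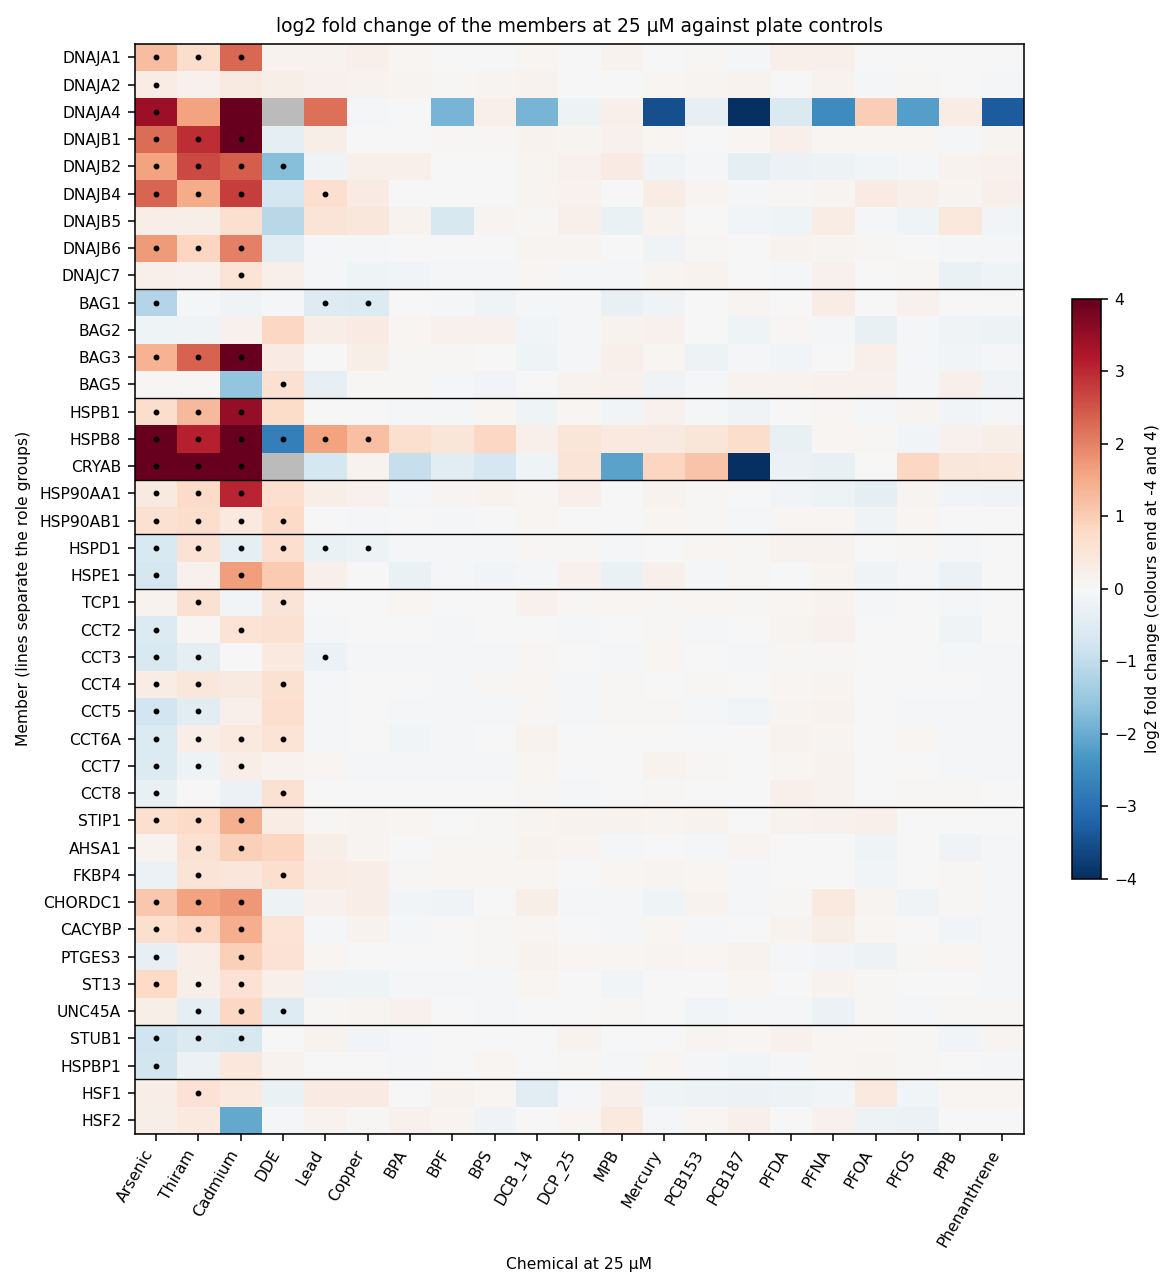
Log2 fold change of each of the 40 members (rows, by role) at 25 µM against the plate's own controls for each of the 21 chemicals (columns); dots mark an adjusted p under 0.05 in edgeR's quasi-likelihood test, grey cells were not tested and colours end at -4 and 4. The marked cells lie in the columns of arsenic, cadmium, thiram, DDE, lead and copper, and the other 15 columns hold none.

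All 3 small heat shock proteins were higher in arsenic, cadmium and thiram, with the highest median log2 fold change of the 9 roles in each (4.32, 4.57 and 3.12). CRYAB (alpha B-crystallin; chromosome 11, 111908565 to 111923722, minus strand, GRCh38) was nearly silent in controls, at 0 counts in 6 of 15 water controls of plate 3153 and 10 of 15 DMSO controls of plate 3284, with highest controls at 2.87 and 6.06 CPM. With 25 µM arsenic its 4 libraries stood at 132, 130, 110 and 121 CPM. The 2 cadmium libraries stood at 667 and 709 CPM, and the 4 thiram libraries at 88.4, 137, 83.9 and 113 CPM. No dosed library overlapped the controls. In summed counts the ratio to controls was 525 for arsenic (4680 counts against 46; 95% exact interval 393 to 719), 1478 for cadmium (1100 to 2032) and 402 for thiram (2020 counts against 43; 298 to 558), with intervals that cover counting error only. The fitted log2 fold changes were 8.91 ± 0.30 (SE, adjusted p = 2.2e-61), 11.38 ± 0.38 (p = 7.47e-61) and 8.63 ± 0.39 (p = 4.31e-47). Of the exonic bases of CRYAB, 20.6% overlap the antisense gene HSPB2, and whether the counting used strand is not given in the sources used here, so reads of the pair cannot be told apart there.

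HSPB8, a small heat shock protein that works with BAG3 in selective autophagy (chromosome 12, 119178642 to 119221131, plus strand), was also low in controls, with a median of 3.41 CPM on plate 3153 (highest 14.5) and 3.10 CPM on plate 3284 (highest 7.79). Arsenic libraries stood at 51.5, 44.6, 76.5 and 105 CPM, all above the controls (log2 fold change 4.32 ± 0.27, adjusted p = 3.85e-26, n = 4). The 2 cadmium libraries, at 131 and 32.2 CPM, differed from each other but both lay above the controls (4.57 ± 0.75, p = 1.48e-06). Thiram libraries stood at 42.7, 20.2, 39 and 5.38 CPM, the last of them within the control range (3.12 ± 0.36, p = 2.82e-12).

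HSPB1 (HSP27), which binds actin as well as unfolded proteins, was already abundant, at a median of 320 CPM in the controls of plate 3153 and 319 CPM on plate 3284. The 2 cadmium libraries stood at 3196 and 3784 CPM (log2 fold change 3.51 ± 0.13, adjusted p = 1.69e-41). Thiram libraries stood at 704, 673, 834 and 891 CPM (1.30 ± 0.08, p = 1.12e-27) and arsenic libraries at 567, 539, 400 and 482 CPM (0.70 ± 0.11, p = 1.37e-07). Every dosed library was above its highest control, which was 378 CPM on plate 3153 and 360 CPM on plate 3284. The water controls of plate 3153 differed in HSPB1 by 0.43 (log2) between numbering sets, the first being higher.

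**Figure D2:**
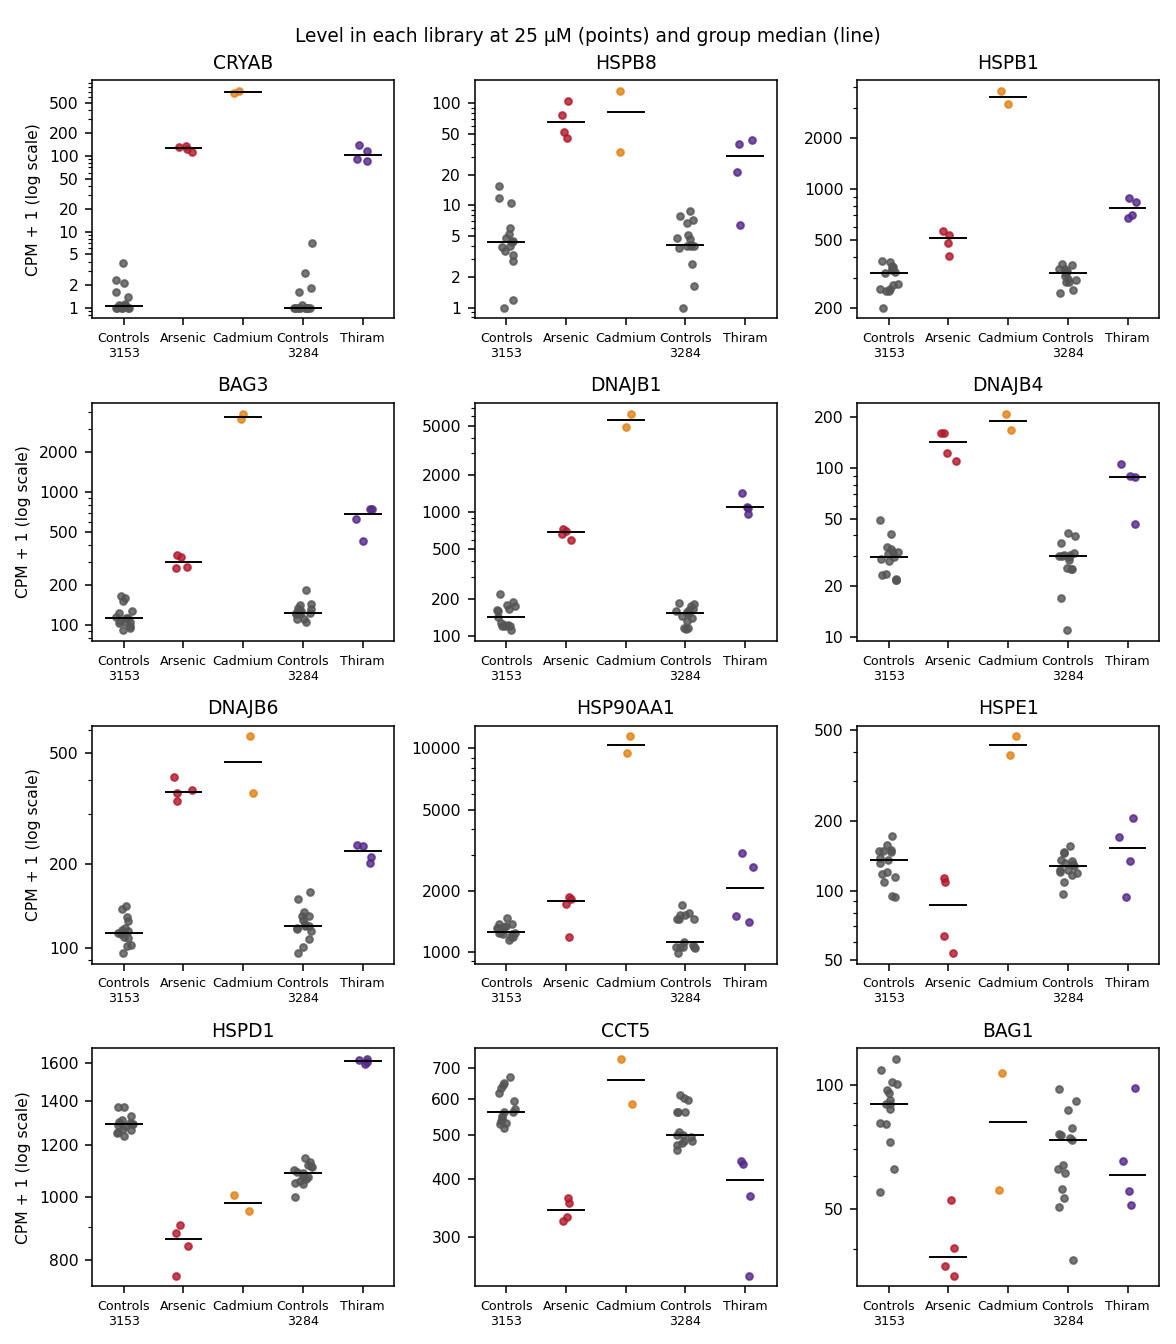
Each point is 1 library and each line a group median: CPM + 1 on a log axis for 12 members, in the controls of the plate and in the 25 µM libraries of arsenic, cadmium and thiram. CRYAB in the dosed libraries sits between 83.9 and 709 CPM, while its highest control is at 6.06 CPM.

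Among J-domain co-chaperones, 7 of 9 were higher in arsenic, 6 in cadmium and 5 in thiram, and none was lower, with median log2 fold changes of 1.60, 2.29 and 0.86. DNAJB1 (HSP40; chromosome 19, 14514770 to 14529770, minus strand), the main inducible partner of cytosolic HSP70, stood at 4879 and 6231 CPM with cadmium, against 110 to 216 CPM in the controls (5.28 ± 0.16, adjusted p = 1.04e-49). Its arsenic libraries were at 599, 734, 666 and 708 CPM (2.24 ± 0.14, p = 8.32e-27). Its thiram libraries were at 1102, 1082, 1421 and 958 CPM, against 112 to 184 CPM in the DMSO controls (2.95 ± 0.09, p = 2.34e-52). No dosed library of DNAJB1 overlapped its controls in any of the 3.

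DNAJA1, the abundant farnesylated J-domain protein, reached 2465 and 2197 CPM in cadmium, 1148, 1146, 1082 and 1134 CPM in arsenic and 791, 725, 686 and 746 CPM in thiram. Its controls lay at 397 to 596 CPM on plate 3153 and at 415 to 540 CPM on plate 3284, so the groups were apart (log2 fold changes 2.29 ± 0.12, 1.24 ± 0.09 and 0.70 ± 0.06). DNAJB6, a suppressor of polyglutamine aggregation, rose by 1.69 ± 0.09 in arsenic (358, 335, 365 and 406 CPM against 94.9 to 140; adjusted p = 4.77e-32), 2.02 ± 0.15 in cadmium and 0.86 ± 0.09 in thiram. DNAJB4 rose by 2.31 ± 0.14 in arsenic, where libraries stood at 122, 110, 160 and 160 CPM against at most 48.6 CPM in controls. In cadmium its change was 2.75 ± 0.31 and in thiram 1.48 ± 0.19.

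DNAJB2, a J-domain protein with ubiquitin-interacting motifs, stood in thiram at 141, 94.7, 99.7 and 81.1 CPM against 7.66 to 27.1 CPM in controls (2.65 ± 0.21, adjusted p = 1.26e-20), and rose by 1.60 ± 0.19 in arsenic and 2.42 ± 0.52 in cadmium. DNAJA2, a constitutive relative of DNAJA1, was higher by a small amount in arsenic (0.29 ± 0.10, p = 0.0135) and did not pass in the other 2. DNAJA4 was called in arsenic (3.43 ± 1.13, p = 0.00861) on 23 and 20 counts in 2 libraries, at 2.75 and 1.60 CPM, and 0 in the other 2, and the ratio of summed counts was 12.3 (95% exact interval 6.97 to 22.7). DNAJC7 was called higher in cadmium (0.56 ± 0.18, p = 0.0319) although its 2 libraries were at 295 and 89.6 CPM, on either side of the controls, and it gave -0.56 without the first of them. DNAJB5 did not pass in any of the 3.

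Within the BAG family BAG3 was the one member called higher in arsenic, cadmium and thiram. BAG3 (chromosome 10, 119651370 to 119677819, plus strand), the HSP70 partner of HSPB8 in the autophagic clearance of damaged filaments, was at 91.0 to 166 CPM in the controls of plate 3153 and at 3541 and 3900 CPM in cadmium (5.01 ± 0.14, adjusted p = 3.87e-52). Its arsenic libraries stood at 268, 276, 326 and 340 CPM (1.39 ± 0.12, p = 2.05e-17). Its thiram libraries stood at 746, 752, 630 and 426 CPM against 105 to 182 CPM (2.36 ± 0.09, p = 2.32e-46). BAG1, which also binds the anti-apoptotic protein BCL2, fell in arsenic to 35.4, 51.6, 33.6 and 39.2 CPM, all below the lowest control at 53.9 CPM (-1.16 ± 0.17, p = 6.65e-09). In cadmium and thiram BAG1 gave -0.13 ± 0.37 and -0.07 ± 0.17 and did not pass, and neither BAG2 nor BAG5 passed in any of the 3.

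Both HSP90 genes were higher in arsenic, cadmium and thiram. HSP90AB1, the constitutive form, rose in arsenic (4632, 4777, 4224 and 4503 CPM; 0.62 ± 0.06) and thiram (4374, 4280, 4839 and 4764 CPM; 0.70 ± 0.06) and by 0.39 ± 0.09 in cadmium (3993 and 3739 CPM), in all 3 without overlap with controls at 2620.3 to 3333 CPM. HSP90AA1, the inducible form, reached 9455 and 11442 CPM in cadmium against 1145 to 1463 CPM in controls (3.03 ± 0.11, adjusted p = 3.77e-44). In arsenic its libraries stood at 1821, 1862, 1725 and 1175 CPM, the last among the controls (0.36 ± 0.09, p = 0.000897). In thiram they stood at 1396, 1497, 2597 and 3050 CPM (0.75 ± 0.18, p = 0.000589), the first 2 among controls that ranged from 986 to 1699 CPM. That plate's first controls were lower than the last by 0.55 (log2) in HSP90AA1, and within the sets the thiram change was 0.44 and 0.88.

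The mitochondrial chaperonin pair fell in arsenic and moved in opposite directions in cadmium, while in thiram HSPD1 rose and HSPE1 did not pass. HSPD1 and HSPE1 lie head to head on chromosome 2, with overlapping annotated spans (197486581 to 197516737 on the minus strand and 197499994 to 197503457 on the plus strand). Of the exonic bases of HSPE1, 14.2% lie antisense to HSPD1 and 9.71% are shared with HSPE1-MOB4 on the same strand. Reads there cannot be told apart, since the strand setting of the counting is not given. HSPD1 fell in arsenic to 879, 905, 841 and 758 CPM, all below controls of 1237.5 to 1371 CPM (-0.61 ± 0.06, adjusted p = 1.76e-15), and in cadmium to 1007 and 952 CPM (-0.40 ± 0.09, p = 0.000499). In thiram it rose to 1615, 1621, 1594 and 1604 CPM, all above controls of 998 to 1147 CPM (0.57 ± 0.06, p = 2.12e-13). HSPE1 fell in arsenic (112, 108, 62.3 and 52.6 CPM against 92.9 to 172 CPM, with overlap; -0.68 ± 0.14, p = 1.63e-05), rose in cadmium to 467 and 389 CPM (1.68 ± 0.21, p = 2.24e-10) and did not pass in thiram (0.17 ± 0.15, p = 0.462). With relative log expression size factors (the DESeq2 scaling) in edgeR the fall of HSPD1 in cadmium was -0.24 and did not pass (p = 0.0553). GENCODE names 26 pseudogenes of HSPE1 and 17 of HSPD1, so how reads shared with those copies were assigned bears on both levels.

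TRiC subunits were called in both directions in arsenic and thiram and upward in cadmium. In arsenic 6 of 8 were lower and 1 higher, from CCT5 at -0.75 ± 0.10 (363, 323, 329 and 353 CPM against 517 to 669 CPM) to CCT4 at 0.31 ± 0.09, with TCP1 not called and CCT8 (-0.30 ± 0.08) not passing under relative log expression size factors (-0.17). In cadmium 3 were higher (CCT2, CCT6A and CCT7), led by CCT2 at 0.54 ± 0.13, and none lower. CCT8 had the lowest value, -0.25 ± 0.14 (adjusted p = 0.329). These 3 cadmium calls rest on 2 libraries, and CCT2 gave 0.39 without the first. CCT6A and CCT7 did not pass with no filter (0.40 and 0.28). With the set-aside library included they gave 0.20 and 0.08 and did not pass. In thiram 3 were higher, led by TCP1 at 0.61 ± 0.08, and 3 lower, with CCT5 at -0.46 ± 0.08 (431, 439, 366 and 245 CPM against 461 to 611 CPM) and CCT7 (-0.19 ± 0.06) not passing under those factors (-0.11). The median subunit gave -0.54 in arsenic, 0.24 in cadmium and 0.05 in thiram. With those factors 25 members were higher and 0 lower in cadmium. CCT5 shares 30.1% of its exonic bases with an antisense gene.

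Among HSP90 and HSP70 partners, 7 of 8 were higher in cadmium, 6 in thiram and 4 in arsenic. STIP1 (HOP), the adaptor between the 2 chaperones, stood at 495, 580, 478 and 495 CPM in arsenic against 288 to 391 CPM (0.63 ± 0.11, adjusted p = 2.86e-07), at 956 and 808 CPM in cadmium (1.42 ± 0.16) and at 560, 607, 457 and 442 CPM in thiram (0.76 ± 0.07). CHORDC1, an HSP90 co-chaperone, rose by 1.08 ± 0.13, 1.74 ± 0.26 and 1.60 ± 0.15, and CACYBP, an HSP90 and ubiquitin ligase partner, by 0.64 ± 0.08, 1.45 ± 0.13 and 0.84 ± 0.08. ST13 (HIP), which stabilises the ADP state of HSP70, was at 572, 635, 623 and 681 CPM in arsenic against 305 to 405 CPM (0.80 ± 0.08, p = 5.03e-16). It rose by 0.58 ± 0.13 in cadmium and by 0.23 ± 0.07 in thiram, and GENCODE names 16 pseudogenes of it.

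AHSA1, the activator of the HSP90 ATPase, was called in cadmium (0.97 ± 0.14) and thiram (0.61 ± 0.11), and gave 0.15 ± 0.08 in arsenic. FKBP4, a steroid receptor immunophilin, passed in thiram (0.52 ± 0.09) and gave -0.23 ± 0.13 in arsenic and 0.47 ± 0.21 in cadmium, neither called. PTGES3 (p23), which closes HSP90 on its client, was lower in arsenic (-0.33 ± 0.10, adjusted p = 0.00662; -0.20 and not passing with relative log expression size factors) and higher in cadmium (0.97 ± 0.14). UNC45A, a myosin chaperone, was higher in cadmium (0.83 ± 0.21) and lower in thiram (-0.37 ± 0.14, p = 0.0386; -0.29 and not passing with those factors).

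STUB1 (CHIP), the ubiquitin ligase of the chaperone system (chromosome 16, 680224 to 682870, plus strand), was lower in each of the 3. Arsenic libraries stood at 69.6, 71.4, 65.0 and 61.5 CPM, all below controls of 101 to 134 CPM (-0.80 ± 0.09, adjusted p = 4.77e-12). Cadmium libraries stood at 81.6 and 65.8 CPM (-0.65 ± 0.22, p = 0.0443; p = 0.2 with the other size factors). Thiram libraries stood at 125, 92.8, 84.5 and 55.9 CPM and overlapped controls of 101 to 179 CPM (-0.57 ± 0.12, p = 8.98e-05). JMJD8 lies antisense over 42.4% of the exonic bases of STUB1. HSPBP1, a nucleotide exchange factor for HSP70, was lower in arsenic (-0.75 ± 0.12, p = 1.52e-07) and did not pass in the other 2.

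Of the messages of the heat shock factors, only HSF1 in thiram was called. HSF1 gave 0.27 ± 0.16 in arsenic (143, 153, 189 and 191 CPM; adjusted p = 0.16) and 0.39 ± 0.32 in cadmium (148 and 220 CPM; p = 0.699). In thiram it was called at 0.57 ± 0.15 (p = 0.00163), with libraries at 291, 286, 228 and 159 CPM. Its DMSO controls spanned 107 to 206 CPM and were higher by 0.56 (log2) in the first numbers than in the last of that plate. HSF2 did not pass in any of the 3, with 0.24 ± 0.19, -2.05 ± 1.12 and 0.38 ± 0.27. Its cadmium libraries stood at 0 and 7.53 CPM, so its change there was poorly bounded.

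**Figure D3:**
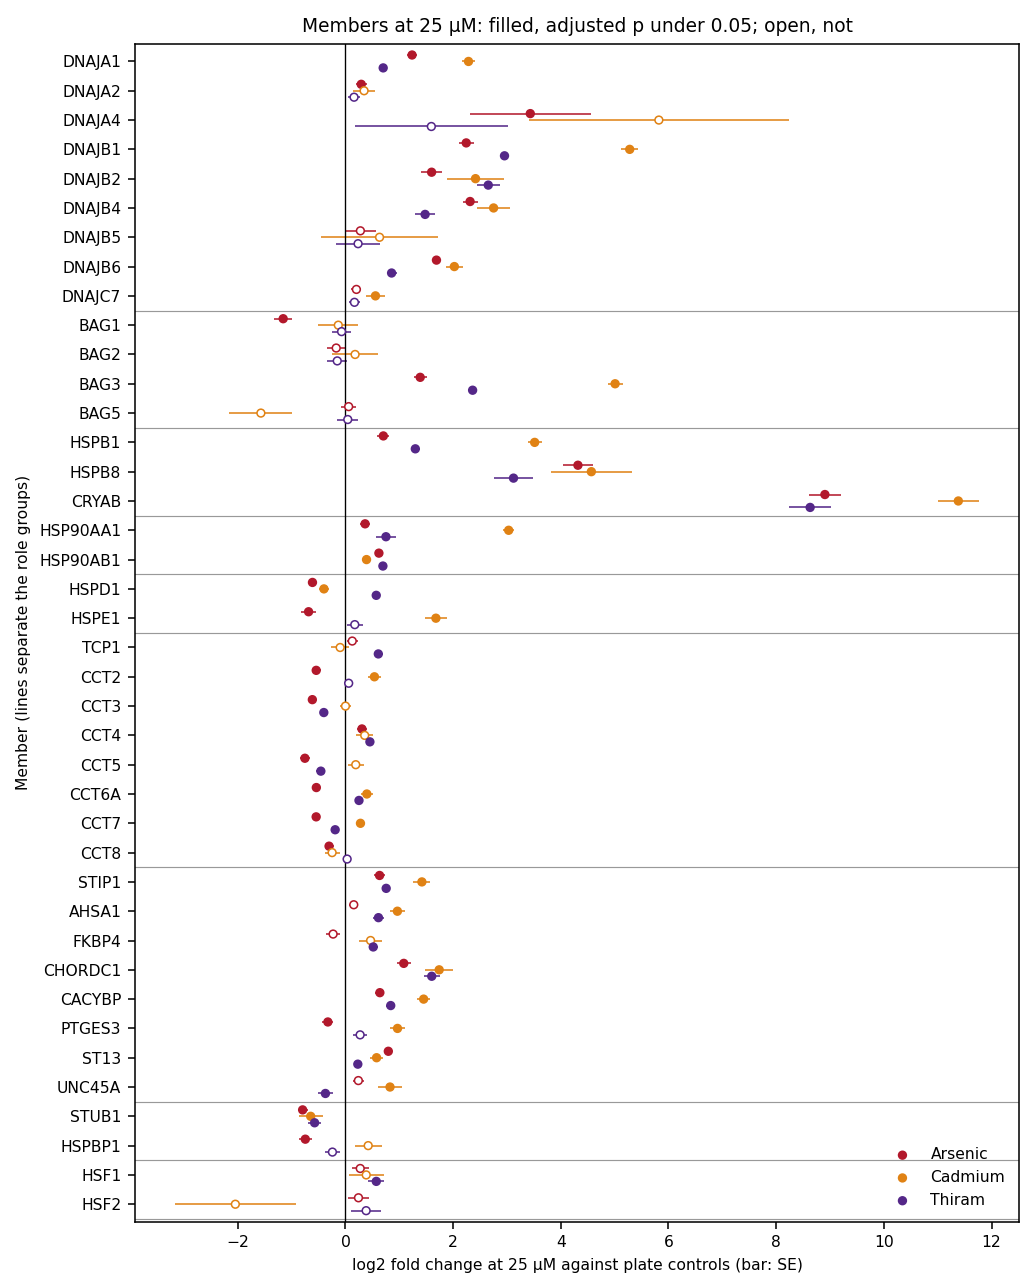
Log2 fold change with its standard error for each member at 25 µM arsenic, cadmium and thiram, each against its plate's controls; filled points have an adjusted p under 0.05. CRYAB lies farthest to the right in each, and HSPD1 has filled points below 0 in arsenic and cadmium and above 0 in thiram.

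Other members of the folding network were read alongside. Of 14 other HSP70 and HSP110 genes 11 were higher in arsenic, 8 in cadmium and 11 in thiram, and none lower. HSPA6, the strictly inducible HSP70, led with fitted log2 fold changes of 10.23 in arsenic, 12.85 in cadmium and 10.79 in thiram, followed by HSPA1A in arsenic (4.69) and cadmium (7.31) and HSPA1B in thiram (4.67); these last 2 genes are near-identical copies, so their split of reads is uncertain. Of 23 other folding partners 7 were higher and 6 lower in arsenic, 8 and 3 in cadmium and 5 and 6 in thiram. FKBP5, an HSP90 immunophilin and steroid receptor target, was lowest in each (-2.20, -1.98 and -1.68). The collagen chaperone SERPINH1 was among the highest called of these partners (1.82 in cadmium and 0.65 in thiram), and the mitochondrial HSP90 TRAP1 was lower in arsenic (-2.06), thiram (-1.05) and cadmium (-0.60).

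Arsenic and cadmium share the controls of plate 3153, so their libraries were also set directly against each other. Of the members, 18 differed and all 18 were lower in arsenic (8.56% of all genes differed, 1030 higher and 1049 lower). BAG3 differed most (-3.62 ± 0.19), followed by DNAJB1 (-3.04), HSPB1 (-2.81), HSP90AA1 (-2.67), CRYAB (-2.48) and HSPE1 (-2.36 ± 0.23). CRYAB did not pass with DESeq2 (-2.51). FKBP4, another of the 18, did not pass without replicate 3 (-0.66) or replicate 4 (-0.63). The members' median was -0.68, while that of all genes was 0.81 and that of abundant genes 0.17. The arsenic libraries had 7.27 to 11.98 M counts and the cadmium libraries 1.43 to 1.45 M.

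Arsenic and thiram were compared as responses to their own controls, since plate and solvent differ. Of the members, 20 differed (10.8% of genes), 5 with a higher response in arsenic and 15 with a lower one. HSPD1 had the largest difference of those 20 (-1.14 ± 0.09), followed by BAG1 (-1.06), DNAJB2 (-1.01), BAG3 (-0.91) and HSPE1 (-0.85). DNAJB6 (0.88), DNAJB4 (0.87), UNC45A (0.65), ST13 (0.60) and DNAJA1 (0.58) responded more in arsenic. With single replicates left out, 14 to 16 members differed. BAG1 did not pass without replicate 3 (-0.73), nor DNAJB2 without replicate 1 (-0.84). CRYAB, HSPB8, HSP90AB1 and STIP1 were not among the genes that differed, which does not show that they responded alike.

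In arsenic and thiram the called members were also read in each numbering set alone. All 30 called members of arsenic and all 27 of thiram had the same sign in both sets. They were called from libraries of both sets together, so like signs were partly built in. CCT7 in thiram stood at -0.0058 in the first set. All 30 and all 27 remained called when the set was a term in the fit. Both cadmium libraries belong to the first set, and with the term 22 of its 25 members remained, without CCT7, STUB1 and DNAJC7.

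**Figure D4:**
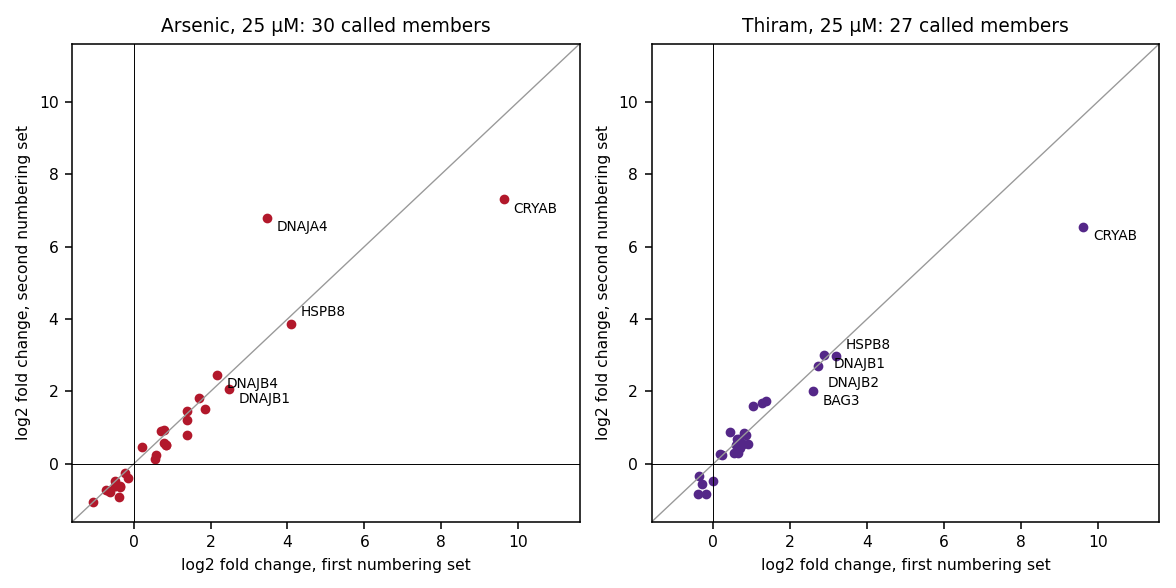
Log2 fold change of members at 25 µM against controls of the same numbering set, in the first set (horizontal axis) and in the second (vertical axis), for arsenic and thiram. All 30 and 27 called members lie in the quadrants where both sets have the same sign, and they were called from both sets together.

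Below 25 µM few members were called. At 2.5 µM 10 of 838 tests passed (8 higher, 2 lower; 0.412% of gene tests), at 0.25 µM 4 (0.0748%) and at 0.025 µM 0 by edgeR (0.0104%), where DESeq2 called 2. Cadmium at 2.5 µM accounted for 3 of these (0.235% of genes): CRYAB at 37.9, 28.8, 8.79 and 24.8 CPM (6.56 ± 0.39), DNAJB1 at 336, 511, 177 and 250 CPM (1.15 ± 0.14) and BAG3 at 224, 296, 163 and 222 CPM (0.97 ± 0.13). DNAJB1 replicates 3 and 4 were nearest the controls, and within the second set its change was 0.28 (adjusted p = 0.717). Thiram at 2.5 µM (0.0329% of genes) had CRYAB as its 1 called member, at 0.468, 1.5, 4.2 and 18.1 CPM (4.37 ± 0.70, p = 2.46e-05). Without replicate 4 the CRYAB value was 2.71 and did not pass.

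Arsenic at 2.5 µM (1.96% of genes) had HSP90AA1 higher, at 1659, 1519, 2646 and 1684 CPM against at most 1463 CPM (0.55, adjusted p = 3.8e-05; p = 0.083 without the third library), and BAG1 lower (-0.56, p = 0.0353; not called without replicate 1, 3 or 4, at -0.57, -0.56 and -0.37). Copper at 2.5 µM (3% of genes) had HSP90AA1 at 1818, 1698, 1836 and 1844 CPM (0.49), STIP1 (0.36) and CACYBP (0.35) higher and BAG1 lower (-0.53). STIP1 was not called there without any 1 of the 4 replicates (0.33 to 0.39), nor with DESeq2 (0.31), and BAG1 was not called without replicate 1, 2 or 3 (-0.47 to -0.56). PFDA at 0.25 µM (0.642% of genes) had small rises of HSPE1 (0.42 ± 0.11), HSPD1 (0.25), DNAJA1 (0.24) and CCT6A (0.21). All 4 calls were lost without replicate 1, where HSPE1 stood at 265 CPM beside 117, 113 and 105 CPM. Without it HSPE1 gave 0.02, HSPD1 0.13, CCT6A 0.14 and DNAJA1 0.20.

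The linear dose trend, which uses no control libraries in its contrast, was called for 74 members in 4 chemicals (55 upward, 19 downward). Arsenic had 27 (14 up, 13 down; 29.7% of genes), thiram 23 (20 up, 3 down; 18.5%), cadmium 22 (20 up, 2 down; 8.96%) and lead 2 (0.868%); the other 17 chemicals had 0 by edgeR (0.136% of genes) and 3 by DESeq2. CRYAB had the steepest slope, at 3.15 ± 0.64 log2 units per 10-fold dose in arsenic, 3.46 ± 0.16 in cadmium and 2.83 ± 0.18 in thiram. In cadmium its mean climbed from 0.807 ± 1.51 CPM (SD, n = 4) at 0.025 µM over 1.54 ± 2.0 and 25.1 ± 12.2 to 688 ± 29.6 CPM (n = 2) at 25 µM. In arsenic the lower 3 doses stayed at 0.103, 0.0735 and 0.142 CPM on average and 25 µM stood at 123 ± 10.2 CPM, so the slope there came from 1 dose.

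DNAJB1 in cadmium had means of 128, 146, 318 and 5555 CPM over the 4 doses and a slope of 1.74 ± 0.08, and BAG3 had 114, 111, 226 and 3720.4 CPM and a slope of 1.61 ± 0.06. HSPD1 in arsenic had means of 1303, 1341, 1150.1 and 846 CPM, and BAG1 means of 77.0, 74.0, 60.1 and 39.9 CPM with a slope of -0.31 ± 0.06. In thiram the means of DNAJB1 were 154, 153, 178 and 1141 CPM, with a slope of 0.89 ± 0.04, and STUB1 had the steepest descent (-0.20). In lead, where same-numbered libraries of the 4 doses deviated together, the trends of DNAJB4 (0.24) and HSPD1 (-0.08) were called with and without the replicate block, and HSPB8 (0.42, adjusted p = 0.0024) was called with it and not without it (0.41, p = 0.134).

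**Figure D5:**
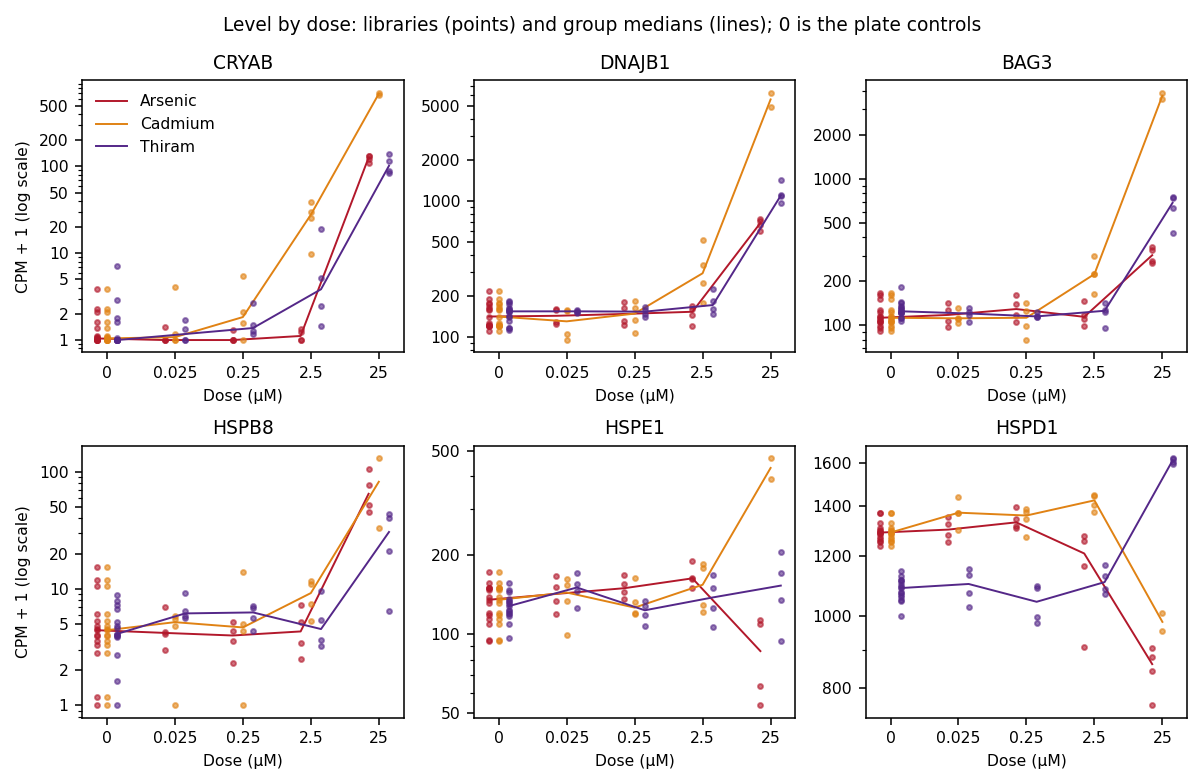
Level by dose (µM; level axis logarithmic) for 6 members in arsenic, cadmium and thiram; points are libraries on a CPM + 1 axis, lines join group medians, and dose 0 is the plate's controls. DNAJB1 and BAG3 are highest at 25 µM in all 3 chemicals, and CRYAB in cadmium already averages 25.1 CPM at 2.5 µM, against 688 CPM at 25 µM.

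DDE at 25 µM had 4 TRiC subunits among its higher members. Of 38 members tested 11 passed (8 higher, 3 lower; 7.77% of 13921 genes), and 27 had an unadjusted p under 0.05. HSPD1 was at 875, 1068, 1225 and 1176 CPM against 433 to 858 CPM in its controls (0.68 ± 0.20, adjusted p = 0.0389), and HSP90AB1 at 2278, 2916, 3107 and 3102 CPM (0.75 ± 0.22, p = 0.0419), with 1 library among the controls. FKBP4 (0.66), CCT8 (0.61), BAG5 (0.60), CCT4 (0.59), CCT6A (0.54) and TCP1 (0.52) were the other higher members. HSPB8 was lower at 3.38, 3.44, 8.69 and 3.38 CPM (-2.75 ± 0.83, p = 0.0454), but 2 of its 8 controls stood at 71.4 and 160 CPM beside a median of 10.97 CPM. DNAJB2 (46.2, 14.1, 27 and 22.2 CPM; -1.70 ± 0.52, p = 0.0471) and UNC45A (168, 139, 142 and 135 CPM; -0.51, p = 0.0326) were also lower.

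Without replicate 2 or without replicate 3 none of these DDE calls passed (adjusted p between 0.132 and 0.188), while the log2 fold changes stayed at 0.873 to 1.17 times those of all 4 libraries. HSPD1 gave 0.69 and 0.62 and HSPB8 -2.64 and -3.22 there. HSPB8 was also lost without replicate 1 or 4. Of all members, 23 were called without the libraries numbered 1, 8, 9 and 16, controls 9 and 16 among them, an alternative chosen after seeing the data. The share of all genes called in that fit is not given, so the count cannot be read as particular to the members. Its controls are labelled water, and on plate 3240 water and DMSO controls differed in 7 members, all higher in water (4.08% of genes): BAG2 (0.44), BAG1 (0.39), AHSA1 (0.38), HSPB1 (0.24), CCT8 (0.22), CCT7 (0.19) and TCP1 (0.18). The calls of CCT8, TCP1, CCT7 and HSPB1 were lost with no filter. The part of the solvent or of the plate label in the DDE values was not tested.

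Lead and copper at 25 µM had few called members. In lead (5 members; 3.85% of genes) HSPB8 was higher at 8.23, 5.70, 17.4 and 11.9 CPM (1.62 ± 0.35, adjusted p = 0.00114), overlapping controls of up to 14.5 CPM, and DNAJB4 was higher at 37.4, 40.6, 54.3 and 46.3 CPM (0.68, p = 0.0017). HSPD1 was lower at 1045, 1050, 1093 and 1087 CPM, all below its controls (-0.27, p = 0.000983), as were BAG1 (-0.50) and CCT3 (-0.22) by the test. HSPB8 was not called without replicate 3 (1.26) or with DESeq2 (1.25), and BAG1 and CCT3 were each lost without any 1 of 3 replicates. In copper (3 members; 5.09% of genes) BAG1 was lower at 60.7, 65.4, 64.1 and 53.1 CPM (-0.55, p = 0.0135). HSPB8 in copper (1.19, p = 0.0399) was 1.85 in the first set and -0.40 in the second, and HSPD1 (-0.19, p = 0.0362) was -0.39 and -0.01. BAG1 was lost without replicate 1 or 4, HSPB8 without replicate 1 or 2 and with DESeq2 (0.81), and HSPD1 without replicate 1, 2 or 4.

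Marker sums were read in the same libraries. Basal markers (KRT5, KRT14, KRT17, TP63 and CDH1) summed to 660 to 1166 CPM in arsenic, 1728 to 2790 CPM in cadmium and 2153 to 4880 CPM in copper, against 1520 to 2232 CPM in the controls of plate 3153, and to 1359 to 1721 CPM in thiram against 1190 to 1847 CPM. Luminal markers (KRT8, KRT18, EPCAM, GATA3 and ESR1) summed to 757 to 843 CPM in arsenic, 747 to 881 CPM in cadmium and 748 to 813 CPM in copper, against 852 to 1194 CPM. Thiram gave 508 to 882 CPM for them, against 697 to 1032 CPM. Fibroblast markers summed to 11.1 to 46.2 CPM in arsenic against 21.6 to 146 CPM, and to 4.14 to 27.1 CPM in thiram against 29.4 to 78.7 CPM. For DDE the basal sum was 3032 to 5713 CPM against 5156 to 7007 CPM. Immune markers were low, and summed to 0.78 to 3.71 CPM in arsenic against 0 to 0.392 CPM in the controls of plate 3153. The sums of arsenic and copper luminal markers, arsenic basal and immune markers and thiram fibroblast markers did not overlap their controls. Their part in the members' values was not tested.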

How the data were processed

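Reads per gene symbol were deposited by the authors as raw counts, made with STAR and featureCounts after FastQC and MultiQC on GRCh38, per the submitters' processing notes; versions, annotation and strand setting were not given in any source used. Libraries were grouped by their labels, and the cadmium library with another plate's barcode was left out. Counts of a plate were fitted with edgeR 4.0.16 (R 4.3.3): trimmed mean of M-values scaling, filterByExpr with a minimum count of 10 and a minimum total of 15, 1 mean per group, quasi-likelihood F tests and Benjamini-Hochberg adjustment over all genes of a comparison, with calls at an adjusted p under 0.05. Standard errors are the log2 fold change over the square root of F. Trend weights were -3, -1, 1 and 3. CPM uses the scaled library size. The arsenic and thiram responses were compared as an interaction over both plates. The scripts were tested on simulated data.

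Values by library are given for the 4 highest and 4 lowest called members in each of the 5 chemicals with most calls, for the member with the smallest p of each role in arsenic, and for 12 fixed members; elsewhere up to 5 called members by p. The DNAJA4, DNAJC7, PTGES3 and UNC45A values, and others outside that rule, were chosen after they were seen. The members and lists were chosen with earlier results of these data known. Alternatives were relative log expression size factors, DESeq2 1.42.0, no filter, the numbering set as term or alone, 2 groups alone, single replicates left out, a replicate block, the set-aside library included, and, chosen after seeing the data, thinning to equal depth and a reduced DDE plate. Positions are GENCODE 29 on GRCh38. Ratios of summed counts use unscaled totals and so differ from those of CPM. Replicate numbers were checked for pairing by correlating the deviations of same-numbered libraries from their dose means: every pair was over 0.1 in 4 of 20 chemicals (copper, lead, mercury and PFOA; medians 0.38 to 0.49), and the block is given for their trends.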

Additional observations from a re-analysis of the deposited data

Results flagged for a closer look

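Among 87 sets of 4 or 8 libraries of a member that were tested for a library far from the others, 4 had one, and chance gives about 1 in 20. HSPB8 in control 16 of the DDE plate stood at 159.6 CPM, where the next control was at 71.4 CPM. HSPB8 in the third 25 µM DDE library was at 8.69 CPM, above 3 libraries at 3.38 to 3.44 CPM. CCT8 in the first 25 µM DDE library was at 413.9 CPM, below 3 libraries at 487 to 499.7 CPM. STIP1 in the second 25 µM arsenic library was at 579.9 CPM, where the next was at 495 CPM.

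The 25 µM cadmium library with the barcode of plate 3284, left out of every comparison as reported and included only as an alternative, held 1.28 M counts. HSPE1 at 197.7 CPM and CHORDC1 at 106.7 CPM were above the controls of both plates in it. Of the 40 members, 25 lay within the control range of plate 3284 and 6 within the range of the other 2 cadmium libraries, and CRYAB had 0 counts, which allows up to 3.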

How the results depend on the processing

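Of the members called at 25 µM, 25 of 30 in arsenic, 14 of 25 in cadmium and 20 of 27 in thiram stayed called, with their direction, under every alternative run. Counts without 1 replicate ranged from 28 to 30 in arsenic and 23 to 26 in thiram. Cadmium at 25 µM has only replicates 1 and 2. Leaving out either leaves 1 library, and leaving out replicate 3 or 4 removes none, so no such range is given for it. Relative log expression size factors moved the median of all genes by 0.14 in arsenic and 0.17 in cadmium. With DESeq2 that median in cadmium was 0.07, against -1.42 as reported, and in arsenic 0.15. DNAJC7 in cadmium ran from -0.56 to 1.14 when single replicates were left out, negative without replicate 1, and HSPB8 in copper to -0.40 in the second numbering set. DDE (11 members) gave 0 to 9 without a replicate and 23 without libraries 1, 8, 9 and 16. Lead (5) gave 9 with a term for the set, 2 in the second set, 3 to 4 without a replicate and 2 after thinning. Copper (3) gave 9 in the first set, 0 in the second, 0 to 3 without a replicate and 1 after thinning. The other 15 chemicals (0) gave 2 with DESeq2, 1 with no filter, 2 with the set term, and 5 and 2 in the first and second set. At 2.5 µM (10) the count was 16 with DESeq2, 23 with the set term, 33 and 19 in the 2 sets and 7 to 26 without a replicate. At 0.25 µM (4) it was 18, 10, 14, 2 and 2 to 7, with 2 for 2 groups alone. At 0.025 µM (0) it was 2, 1, 3, 3 and 0 to 14, with 2 under no filter. Trends in lead (2) were 0 without any 1 replicate and 0 after thinning, and in the other 17 chemicals (0) 3 with DESeq2, 1 with no filter, 2 with the set term and 1 with the replicate block. Water against DMSO (7) gave 14 with DESeq2 and 4 with no filter, and first against last controls on plate 3206 (9) gave 14 and 5. Shares of all genes called under these alternatives are not given, so the member counts of this section cannot be read as particular to the members. The causes were not tested.

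With the replicate block the trend counts were 29 in arsenic, 22 in cadmium, 26 in thiram and 3 in lead, and 18 members differed between arsenic and cadmium. In copper, mercury and PFOA, whose numbers also pair, no trend was called with or without the block. No paired fit of the 25 µM calls against controls was possible because controls are numbered in a single run across the plates, apart from the replicates of a dose. Depth gives cadmium 1.43 to 1.45 M counts a library; with plate 3153 thinned to the lowest total its count was 30 against 25. With the set-aside library it was 20.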
